A study of Mus musculus with 4 samples.

Results

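Clustered histone genes were measured in injured pancreas of mice with and without Ifrd1, a gene for a transcriptional co-regulator. They were the genes of the Hist1, Hist2, Hist3 and Hist4 clusters that the array reads one at a time. The platform annotation uses the current names, and 0 of its symbols start with Hist1h, Hist2h, Hist3h or Hist4h. Members were therefore found by gene identifier, through the older symbol that a RefSeq gene table records for each gene. Of 22180 genes measured, 30 were members, read from 32 rows, and for the 2 members with more than 1 row (H2ac21 and H4f16) the row with the highest mean was kept. By type there were 5 H1, 8 H2a, 9 H2b and 8 H4 genes. No H3 gene (0) was read by a row of its own. By cluster 22 lay in Hist1 on chromosome 13, 5 in Hist2 on chromosome 3, 2 in Hist3 on chromosome 11 and 1 (H4f16) in Hist4 on chromosome 6. Genes were put in a cluster by their older symbol, and H2af-ps2 lies on chromosome 13 away from the other Hist1 members. A pair of members, H2af-ps2 and H2bu1-ps, are pseudogenes. The RefSeq table holds 70 clustered histone genes in all, and of the other 40 the array reads 39 only through rows that match several copies at once.

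Total RNA came from pancreas of 8-week-old mice and was hybridised to Affymetrix arrays, 2 arrays from wild-type mice and 2 from mice null for Ifrd1 (labelled IFRD1 null). All 4 samples came after cerulein, an analog of cholecystokinin that over-stimulates acinar cells and causes pancreatitis, at 100 µg/kg, 6 injections a day on alternate days, and tissue was taken on day 5. The labels give proliferation as the aim of the treatment. The groups used here hold no untreated control, and the labels do not state the strain, the sex or how the null allele was made. The labels call the arrays of a group biological replicates but do not say that each is 1 mouse.

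Each nucleosome wraps DNA around core histones of the types H2A, H2B, H3 and H4, and the linker histone H1 binds where the DNA enters and leaves. Cells need new histones when they copy their DNA, so most clustered histone genes are transcribed in S phase, under the coactivator Npat. Their messages end in a stem-loop bound by Slbp in place of a poly(A) tail, and a few, H1f2 and H2bc21 among them, are also made with a poly(A) tail in cells that do not divide. Many copies encode the same or nearly the same protein, so the signal of 1 copy can hold RNA of another. In the annotation 16 of the 30 members also appear on rows that match several copies.

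The promoters of 5 members are shown because these genes carry the description below: H4c9 and H1f2 had lower levels in the null arrays, H2bc9 and H2bc3 higher levels, and H4c12 is the H4 gene with the highest signal. They were chosen after their values were seen. Each is the 250 bases before the RefSeq start (GRCm38.p6), written 5′ to 3′ on the strand of the gene, with matches to the motifs described below in capitals.
H4c9 (chr13:22041363-22041612, - strand): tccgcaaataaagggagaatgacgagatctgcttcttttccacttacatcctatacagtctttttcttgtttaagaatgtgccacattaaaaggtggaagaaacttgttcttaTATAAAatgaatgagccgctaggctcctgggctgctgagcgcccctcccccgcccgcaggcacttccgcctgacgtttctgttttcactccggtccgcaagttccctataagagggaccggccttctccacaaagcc
H1f2 (chr13:23738557-23738806, + strand): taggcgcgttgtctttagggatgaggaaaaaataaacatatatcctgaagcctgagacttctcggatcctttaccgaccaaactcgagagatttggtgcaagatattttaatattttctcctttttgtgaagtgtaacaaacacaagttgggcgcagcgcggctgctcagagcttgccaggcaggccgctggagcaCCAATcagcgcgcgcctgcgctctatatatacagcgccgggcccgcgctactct
H2bc9 (chr13:23543445-23543694, - strand): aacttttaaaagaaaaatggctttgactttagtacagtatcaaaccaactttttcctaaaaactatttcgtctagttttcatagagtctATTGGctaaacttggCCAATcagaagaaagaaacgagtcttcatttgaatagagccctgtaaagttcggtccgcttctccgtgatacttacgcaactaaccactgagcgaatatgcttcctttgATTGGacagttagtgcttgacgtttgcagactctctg
H2bc3 (chr13:23746484-23746733, + strand): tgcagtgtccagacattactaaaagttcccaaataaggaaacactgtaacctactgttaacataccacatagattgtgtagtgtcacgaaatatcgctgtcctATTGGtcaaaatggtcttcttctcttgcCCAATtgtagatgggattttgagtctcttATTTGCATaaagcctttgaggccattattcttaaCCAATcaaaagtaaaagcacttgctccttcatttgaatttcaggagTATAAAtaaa
H4c12 (chr13:21750554-21750803, - strand): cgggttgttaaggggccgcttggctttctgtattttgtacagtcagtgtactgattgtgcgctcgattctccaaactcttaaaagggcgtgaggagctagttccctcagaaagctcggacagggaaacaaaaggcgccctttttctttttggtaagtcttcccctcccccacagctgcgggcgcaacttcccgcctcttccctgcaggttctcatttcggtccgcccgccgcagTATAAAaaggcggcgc

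3 motifs were searched on both strands of these 250 bases: TATAAA (the TATA box, which positions RNA polymerase), CCAAT (the CCAAT box, bound by NF-Y) and ATTTGCAT (the octamer of H2B promoters, bound by the factor Oct-1). None of these motifs contains another. Promoters of 26 of the 30 members were held in the RefSeq table, and those of H2bc21, H4c14, H2af-ps2 and H2bu1-ps were not among them. The CCAAT box was found before 20 of the 26, which is 76.9%, against 33.8% of all 32851 promoters in the table. By type it stood before 5 of 5 H1, 7 of 7 H2a and 7 of 7 H2b genes and before 1 of 7 H4 genes (H4c1). The octamer was found before 9 members (34.6%, against 1.60% of all promoters), 5 of them H2b and 4 H2a genes. It lay on the gene's own strand in the H2b genes and on the opposite strand in the H2a genes. The windows of H2ac1 and H2bc1 overlap, as do those of H2ac12 and H2bc12. The octamer of each pair is the same stretch of DNA, counted for both genes, and shared CCAAT boxes are counted so too. H2bc3 has the octamer 90 bases before the start, while H2bc9, which lies nearby in the cluster, has no octamer and 3 CCAAT boxes. The exact letters TATAAA were found before 13 of the 26 members, against 12.4% of all promoters. They lay on the gene's own strand with the first base 40 to 20 bases before the start in 5 members (19.2%, against 1.99%). In H4c9 and H4c12 the TATAAA match lies 137 and 16 bases before the start. Near variants, such as tataag in H4c9 and tatatata in H1f2, were not searched and stay in lower case. These counts are therefore not counts of all TATA boxes. A match is a string of letters and shows no binding, and these shares describe the sequences with no link to the array values.

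**Figure D1:**
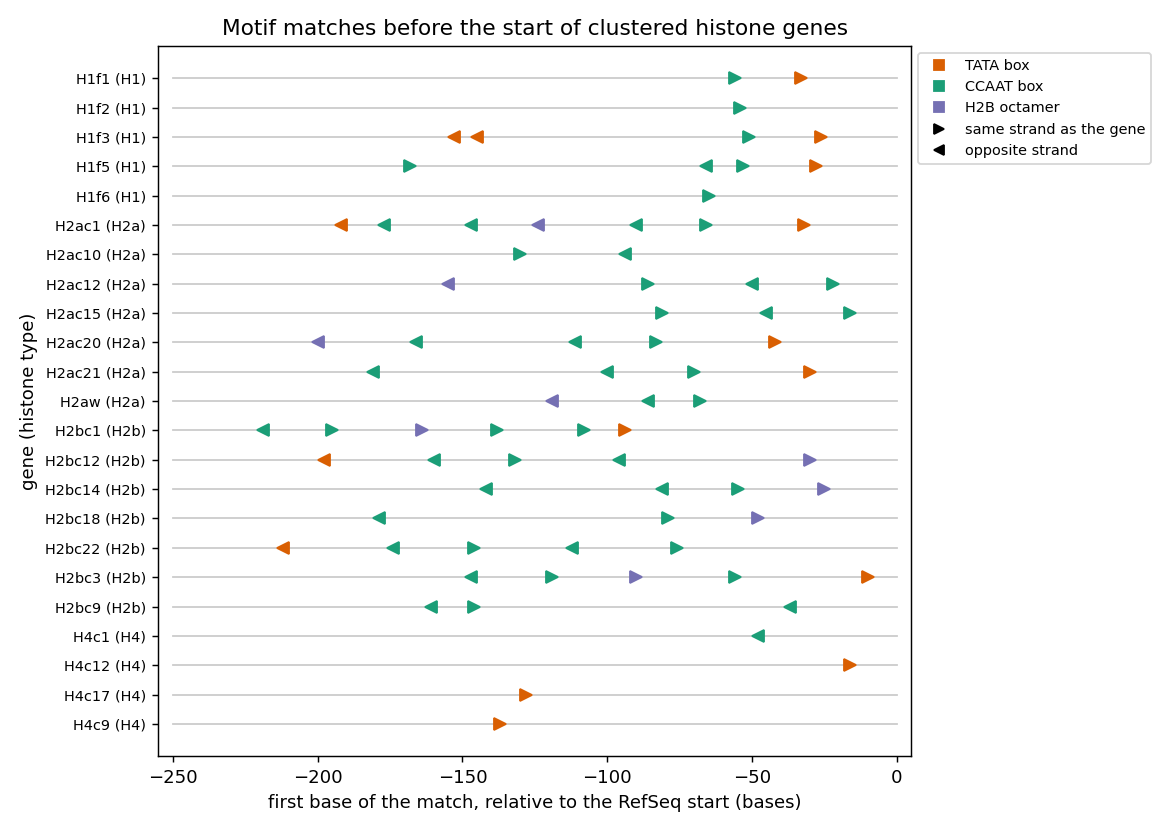
Positions of motif matches in the 250 bases before the RefSeq start of members with at least 1 match, with the distance from the start in bases on the x axis and 1 gene per line. Arrows give the strand of the match. CCAAT boxes stand before all H1, H2a and H2b genes of the plot and before H4c1 alone among the H4 genes.

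Levels are the authors' deposited values, read here as log2, and the medians of the 4 arrays lay between 4.08 and 4.15. Of the 30 members, 12 were above the array median on all 4 arrays and 17 below it on all 4. H2bc21 was above it on 3. The table has no detection call, so signals under that median may be background, and the size of a difference there is not exact. Rows differ in their probes, so their signals do not order the transcripts. Ifrd1, the targeted gene, was at 9.04 and 9.07 in wild type and at 6.99 and 7.09 in the null, as the labels have it (-2.02 ± 0.11 SE, limma adjusted p = 0.138). That p was 0.0349 with arrays centred on their medians.

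**Figure D2:**
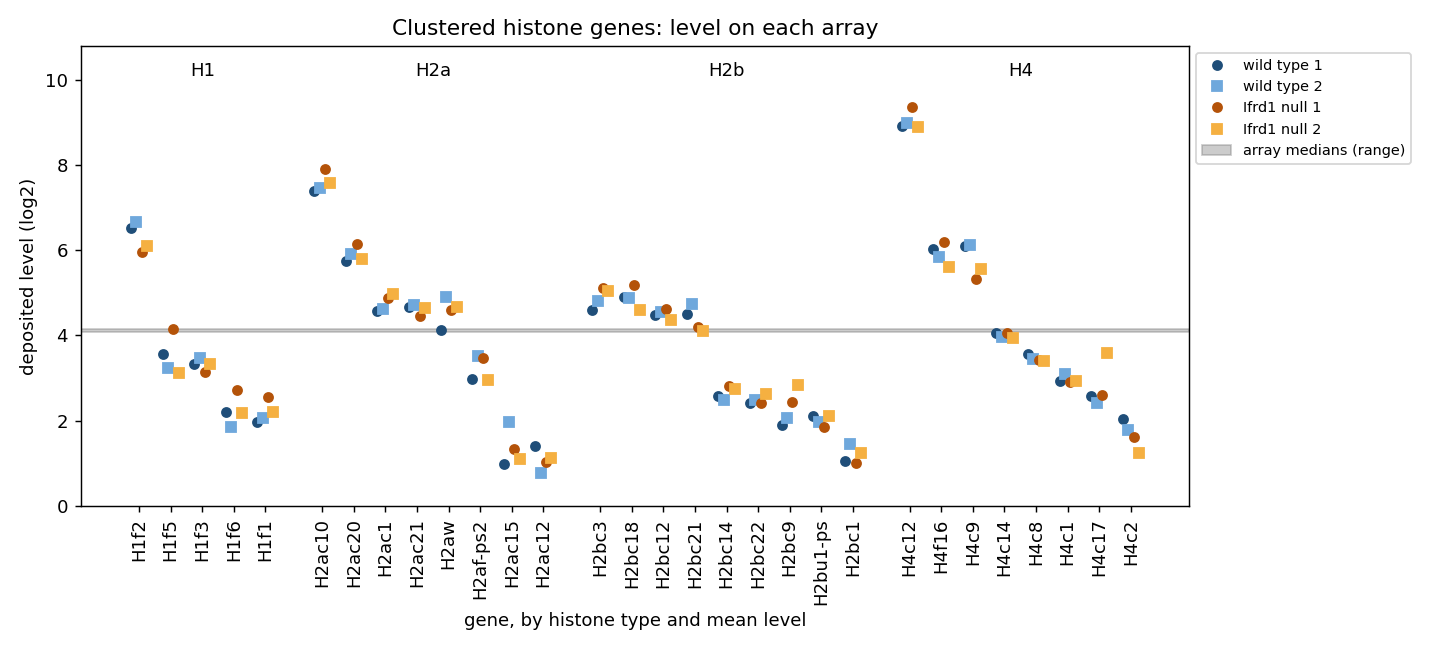
Deposited level (log2, y axis) of each of the 30 members on each of the 4 arrays, grouped by histone type and ordered by mean level. The grey band is the range of the array medians, 4.08 to 4.15, and 17 members lie below their array's median on all 4 arrays.

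Against wild type, the members showed no common direction. 16 were lower in the null and 14 higher (53.3% lower, where 52.7% of all genes were), and the median difference was -0.02 log2, against -0.01 over all genes. The members' median ran from -0.056 without Ifrd1 null 1 to 0.079 without Ifrd1 null 2, with 0.028 and 0.064 without wild type 1 and wild type 2. It was 0.002 with quantile normalization and 0.120 with the filter on dim genes, so its sign was not stable. Differences ran from -0.67 (H4c9) to 0.65 (H2bc9). The groups did not overlap for 6 members that were lower in the null, where 19.7% of all genes were, and for 7 that were higher (23.3%, against 16.1% of all genes). By limma, 0 members passed an adjusted p of 0.05 over all genes, where 0.00451% of genes did, and the smallest adjusted p of a member was 0.721. At unadjusted p under 0.05 there were 6 members, 3 lower and 3 higher, against 3.63% and 3.27% of all genes. That count was 3 without wild type 1 and 3 without wild type 2.

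The linker histones went in both directions. H1f2 (Hist1h1c), a somatic H1 made in dividing and resting cells, stood at 6.53 and 6.67 in wild type and at 5.96 and 6.09 in the null. Both null arrays were below both wild-type arrays. Its difference was -0.57 ± 0.12 (SE), a level 1.48-fold lower (limma unadjusted p = 0.00676, adjusted p = 0.721). It alone among the 5 H1 genes was above the array median on all arrays. H1f1 (Hist1h1a), an H1 of dividing cells, was at 1.96 and 2.07 in wild type and at 2.55 and 2.20 in the null, with no overlap and a difference of 0.36 ± 0.16 (0.185 without Ifrd1 null 1), all below the array median. H1f5 (Hist1h1b) stood at 3.57 and 3.23 against 4.15 and 3.11. Its null arrays lay 1 above and 1 below both wild-type arrays, and its difference of 0.23 ± 0.38 became -0.29 without Ifrd1 null 1. H1f3 was at -0.16 ± 0.13 with overlapping groups. H1f6 (Hist1h1t), the H1 of testis, was at 0.42 ± 0.24, with all its levels below the array median. Its difference was 0.149 without Ifrd1 null 1 and 0.687 without Ifrd1 null 2.

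Among H2a genes, H2ac10 (Hist1h2af) had the highest signal, with 7.39 and 7.47 in wild type and 7.91 and 7.57 in the null. Both null arrays were higher, and the difference was 0.30 ± 0.15 (0.133 without Ifrd1 null 1, 0.474 without Ifrd1 null 2). H2ac1 (Hist1h2aa), known as a testis H2A, had the smallest unadjusted p of this type. It stood at 4.58 and 4.62 in wild type and at 4.88 and 4.98 in the null, a difference of 0.33 ± 0.11 (1.25-fold, limma unadjusted p = 0.0311, adjusted p = 0.721). Its levels were above the median of every array. The Hist2 gene H2ac20 was at 5.76 and 5.92 against 6.14 and 5.79, so the groups overlapped, and the difference of 0.12 ± 0.16 became -0.06 without Ifrd1 null 1. Its neighbour H2ac21 was lower in both null arrays by a small amount (-0.14 ± 0.12). H2aw of the Hist3 cluster was at 0.11 ± 0.28, with wild-type arrays as far apart as 4.13 and 4.91. H2ac15 had the lowest difference of this type, -0.25 ± 0.35, but its wild-type arrays were at 0.98 and 1.96, and the sign turned without wild type 2 (0.24). H2ac12 (-0.01 ± 0.24) and the pseudogene H2af-ps2 (-0.02 ± 0.27) lay near 0, with overlapping groups and levels below the array median.

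H2b genes were found in both directions. H2bc21 (Hist2h2be) stood at 4.51 and 4.75 in wild type and at 4.19 and 4.10 in the null. The groups did not overlap, and the difference was -0.48 ± 0.13 (1.40-fold lower, limma unadjusted p = 0.0167, adjusted p = 0.721). In Ifrd1 null 2 it was just below the array median, so this fold is not exact. H2bc3 (Hist1h2bb) went the other way, with 4.61 and 4.81 in wild type and 5.11 and 5.05 in the null. All its levels were above the array median, and the difference was 0.37 ± 0.12 (1.29-fold, limma unadjusted p = 0.0331, adjusted p = 0.721). H2bc9 (Hist1h2bh) had the largest positive difference of all members, 0.65 ± 0.18 (limma unadjusted p = 0.0176, adjusted p = 0.721). It stood at 1.90 and 2.06 against 2.43 and 2.83, below the median of every array, so the size of this difference is not exact. H2bc14 was higher in both null arrays by 0.24 ± 0.11, again at levels below the median. H2bc18, a Hist2 gene, was at 4.90 and 4.87 in wild type, and its null arrays were at 5.19 and 4.60, on either side. Its difference was 0.01 ± 0.22, and the sign turned with arrays centred on their medians (-0.004). The testis gene H2bc1 (Hist1h2ba) was at -0.14 ± 0.19, and 3 more (H2bc12, H2bc22 and H2bu1-ps) lay between -0.06 and 0.07 with overlapping groups.

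H4 genes held the member with the smallest unadjusted p. H4c9 (Hist1h4i) stood at 6.11 and 6.13 in wild type and at 5.33 and 5.57 in the null, on each array above the median. Both null arrays were below both wild-type arrays, by 0.79 and 0.55 from the wild-type mean. The difference was -0.67 ± 0.13, a level 1.59-fold lower (limma unadjusted p = 0.00485, adjusted p = 0.721). H4c12 (Hist1h4k), which had the highest signal of all members, did not share this pattern. It was at 8.91 and 8.99 in wild type and at 9.36 and 8.90 in the null, so that Ifrd1 null 1 was above and Ifrd1 null 2 slightly below both wild-type arrays (difference 0.18 ± 0.19, -0.06 without Ifrd1 null 1). H4f16, the gene of the Hist4 cluster, had the same layout, with 6.02 and 5.85 against 6.20 and 5.62. Its difference of -0.03 ± 0.23 was positive with quantile normalization (0.05) and cyclic loess (0.04). H4c2 was lower in both null arrays (-0.47 ± 0.19, -0.279 without Ifrd1 null 2) at levels of at most 2.03. H4c17 was at 2.58 and 2.41 in wild type and at 2.60 and 3.58 in the null, and its difference of 0.59 ± 0.35 was 0.10 without Ifrd1 null 2. H4c8 (-0.09 ± 0.11) was lower in both null arrays, and H4c1 (-0.10 ± 0.11) and H4c14 (-0.02 ± 0.11) overlapped.

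By type the median differences were 0.23 for H1, 0.05 for H2a, 0.01 for H2b and -0.06 for H4. The H1 median moved with each array left out. It was -0.06 without Ifrd1 null 1, 0.53 without Ifrd1 null 2, 0.308 without wild type 1 and 0.061 without wild type 2. It also covers 4 members below the array median. The H2a median was -0.062 without wild type 1, -0.003 without Ifrd1 null 1, 0.243 without wild type 2 and 0.155 without Ifrd1 null 2. The H4 median was 0.000 without wild type 1, -0.013 without Ifrd1 null 2 and -0.130 with quantile normalization. The sign of the H2b median turned with arrays centred on their medians (-0.004). By cluster the medians were 0.03 for Hist1 and -0.02 for Hist2, and H4f16 of Hist4 and the pair of Hist3 genes lay between -0.06 and 0.11. The 3 genes known from testis, H1f6, H2ac1 and H2bc1, did not go one way (0.42, 0.33 and -0.14).

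Neighbours on chromosome 13 did not share a common sign. Along the 22 Hist1 members in chromosomal order, 13 of 21 neighbouring pairs had opposite signs. As 11 of the 22 were lower and 11 higher, many such pairs arise in any order, and the count was not tested. It includes H2af-ps2, which lies away from the others, and signs of differences near 0. H1f2 (-0.57) stands between H1f6 (0.42) and H2bc3 (0.37), and H2bc9 (0.65) between H2ac10 (0.30) and H1f3 (-0.16). A pair of H2a and H2b genes that point away from each other can share a promoter. The promoter windows in the RefSeq table hold the 250 bases before the start and 50 after it. Those of H2ac1 and H2bc1 share 220 bases, and the differences of these genes were 0.33 and -0.14. Those of H2ac12 and H2bc12 share 277 bases, with differences of -0.01 and -0.03.

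**Figure D3:**
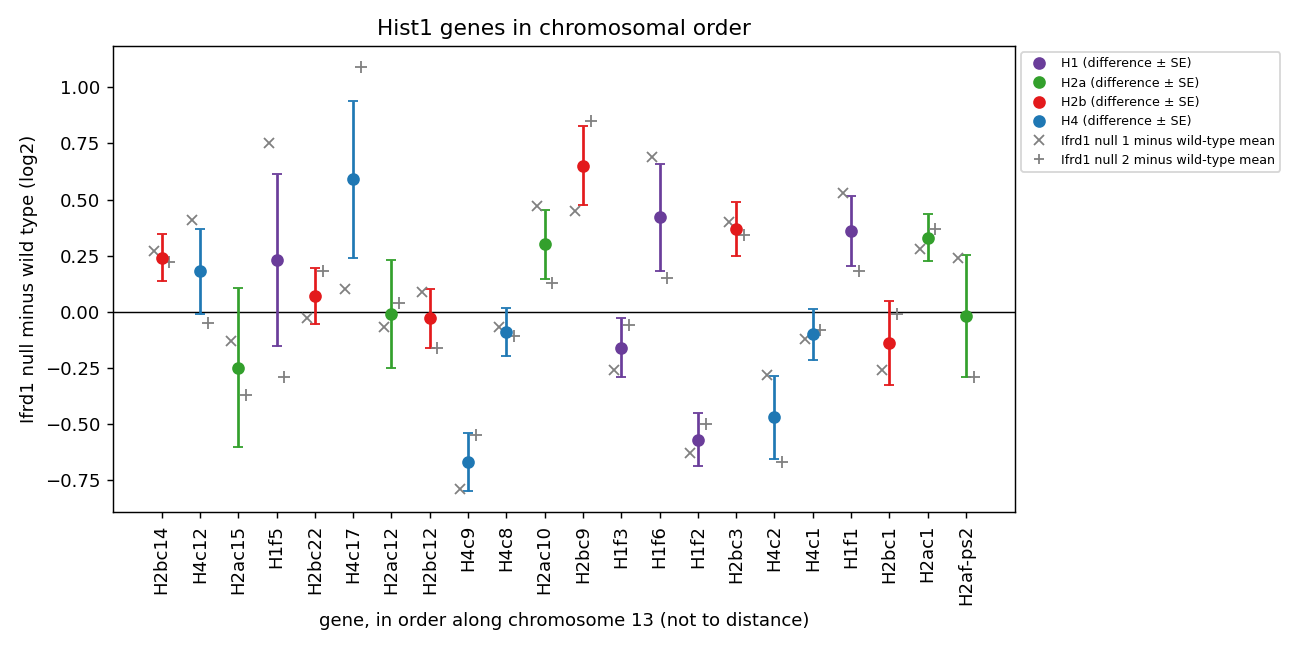
Difference Ifrd1 null minus wild type (log2, y axis) of the 22 Hist1 members in their order along chromosome 13 (x axis, not to distance). Points and bars are limma differences ± SE, coloured by type, and grey marks are each null array minus the wild-type mean. H4c9 and H1f2 lie lowest, and H2bc9 highest with 0.65.

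Over the members the null arrays were further apart than the wild-type arrays, a difference that was not tested. The median gap within a pair was 0.24 in the null and 0.16 in wild type over the members (0.17 and 0.14 over all genes). Over the 12 members above the array median on every array the median was 0.27 above the wild-type mean in Ifrd1 null 1 and 0.06 below it in Ifrd1 null 2, where all genes above that level were at -0.06 on both. In Ifrd1 null 1, 9 of these 12 members were above the wild-type mean, and in Ifrd1 null 2, 4 were. Of all 12343 genes above the array median on every array, 4720 and 4730 were above the wild-type mean on these null arrays. H2ac1, H2ac10, H2bc3 and H2aw were above it on both null arrays, and H1f2, H4c9 and H2ac21 below it on both. H4c12, H4f16, H2ac20, H2bc18 and H2bc12 were above it in Ifrd1 null 1 and below it in Ifrd1 null 2. Of all genes above that level 64.4% were lower in the null, against 5 of these 12 members. The groups did not overlap for 3 of them with lower null levels and 3 with higher ones, against 27.4% and 10.3% of those genes.

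**Figure D4:**
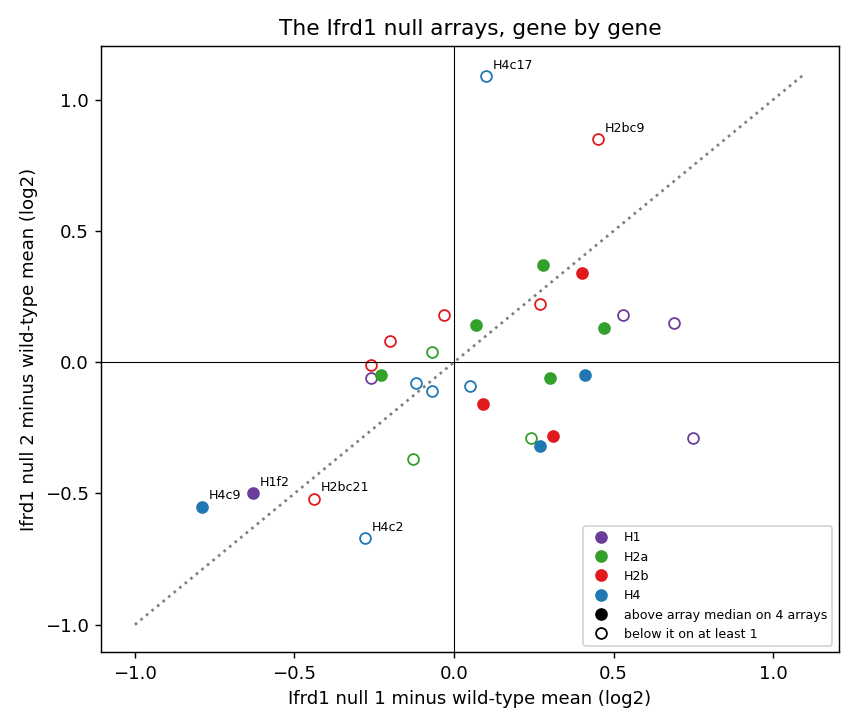
Each member's level on Ifrd1 null 1 (x axis) and Ifrd1 null 2 (y axis), both minus the wild-type mean (log2), coloured by type and filled where the gene was above the median of all 4 arrays. Points on the dotted line agree between the null arrays. H4c9, H1f2, H2bc21 and H4c2 are low on both, and H4c17 is at 0.10 on Ifrd1 null 1 and 1.09 on Ifrd1 null 2.

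The same pair of arrays also differed in markers of cell types. B and plasma cell markers (5 of 6 measured) had a median of 1.15 above the wild-type mean in Ifrd1 null 1 and 0.81 below it in Ifrd1 null 2, and all 5 were higher in the former. Macrophage markers (5 of 5 measured) were at 0.02 and -0.59, T cell markers (5 of 5) at 0.70 and 0.15, duct markers (4 of 4) at -0.26 and -0.48 and acinar markers (5 of 7) at -0.20 and 0.23. Of the duct markers, Krt19 and Cftr were below the wild-type mean on both null arrays. Krt7 was at 0.28 and -0.39 and Sox9 at -0.11 and 0.48. Only 1 of the 5 T cell markers was above the array median on all 4 arrays. The acinar markers that define the labelled tissue were present, with levels of at least 11.3 on every array. Intestinal markers (6 of 6) were at -0.14 and 0.08, with Agr2 at 6.06 in wild type 1 and at 3.47 and 3.04 in the null arrays, and a value of -2.06 for wild type 2 minus wild type 1. Of these 6 markers, 3 were lower and 3 higher in the null, with Lgr5 at 0.25 and Cdx2 at 0.26. On all 4 arrays 4 of them were below the array median, and 0 were above it on all. Markers of cycling cells (4 of 5) were at 0.06 and -0.11, and all 4 were higher in Ifrd1 null 1 than in Ifrd1 null 2. The erythroid list had 0 of 5 genes measured. In whole tissue, fewer cells of a type and less RNA per cell cannot be told apart, and the part of the cell mix in the histone values was not tested. The male genes Uty, Kdm5d and Eif2s3y were 2.97 to 4.10 lower and Xist was 6.82 higher in the null. Sex as read from these genes and genotype therefore cannot be told apart.

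Lists of 100 genes, of which 89 were measured, were set beside the members. They hold genes that make, process and place histones, histones encoded outside the clusters, and genes of S phase and mitosis. No gene of these lists passed the adjusted threshold in limma (0 genes), and 6 of the 89 had unadjusted p under 0.05, all of them lower. Of these 6, 4 were S phase genes, 1 was the mitosis gene Cdk1 and 1 was Npat. Over all genes 3.63% were lower and 3.27% higher at that p. Of the 12343 genes above the array median on every array, 618 were lower and 183 higher at that p. Most genes of these lists were above the array median on every array, and of all genes at that level 64.4% were lower, with a median of -0.06. Transcription factors and coactivators of histone genes (10 measured) had a median of -0.02, with 6 lower. Npat was at 6.32 and 6.43 in wild type and 6.09 and 6.02 in the null, with no overlap (-0.32 ± 0.11, limma unadjusted p = 0.0364, adjusted p = 0.721). Yy1, the brightest of the list, was at 0.06 ± 0.10, and cyclin E1 (Ccne1) at 0.15 ± 0.12. Factors of histone mRNA processing (18 measured) had a median of -0.06, with 14 lower and 16 above the array median on every array, a median that was 0.004 with cyclic loess. Slbp was at 5.69 and 5.74 in wild type and at 6.24 and 5.58 in the null. It had the layout of H4c12, with Ifrd1 null 1 above and Ifrd1 null 2 below both wild-type arrays (0.20 ± 0.24, -0.13 without Ifrd1 null 1). Lsm10, a subunit of the U7 particle that cleaves histone messages, was at -0.35 ± 0.16, Sympk of the cleavage complex at -0.22 ± 0.13 and Tut7, a uridylating enzyme, at -0.12 ± 0.14.

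Histone chaperones (20 measured) had a median of -0.09, with 15 lower and 19 above the array median on every array. Rbbp7 and Rbbp4, which bind histone H4 in several complexes, were lower in both null arrays, at -0.25 ± 0.12 and -0.18 ± 0.10. With quantile normalization they were at -0.168 and -0.078, and with cyclic loess at -0.144 and -0.073. The list median was 0.009 with cyclic loess. Histones encoded outside the clusters (8 measured) had a median of -0.08, with 4 lower. H2aj (-0.27 ± 0.11) and H2az2 (-0.26 ± 0.12) were lower in both null arrays, and H2ax, the variant phosphorylated at DNA breaks, was at 7.37 and 7.52 against 7.77 and 7.30 (0.09 ± 0.19).

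DNA replication genes of S phase (18 measured) had a median of -0.16, with 15 lower and 11 whose null arrays were both below wild type (19.7% of all genes were). That median was -0.110 with quantile normalization and -0.113 with cyclic loess. All 18 were above the array median on every array, and among all such genes 27.4% had both null arrays lower. The helicase subunits Mcm5 and Mcm7 were at -0.56 ± 0.13 and -0.47 ± 0.11, and Pcna, the sliding clamp, at -0.10 ± 0.11, 0.01 with cyclic loess. The S phase median was -0.15 in Ifrd1 null 1 and -0.17 in Ifrd1 null 2 against the wild-type mean, where that of the histone members was 0.08 and -0.06. The sets are unlike in level, as 12 of the 30 members were above the array median on every array. Those 12 were at 0.27 and -0.06, and all genes at that level at -0.06 on both. These medians stand side by side, and their difference was not tested. Mitosis genes (15 measured) had a median of -0.01, with 8 lower, and the sign turned with quantile normalization (0.04). Cdk1, the mitotic kinase, was at -0.49 ± 0.14, Kif20a, a mitotic kinesin, at -0.17 ± 0.13, and Mki67 at -0.02 ± 0.13, 0.07 with quantile normalization.

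**Figure D5:**
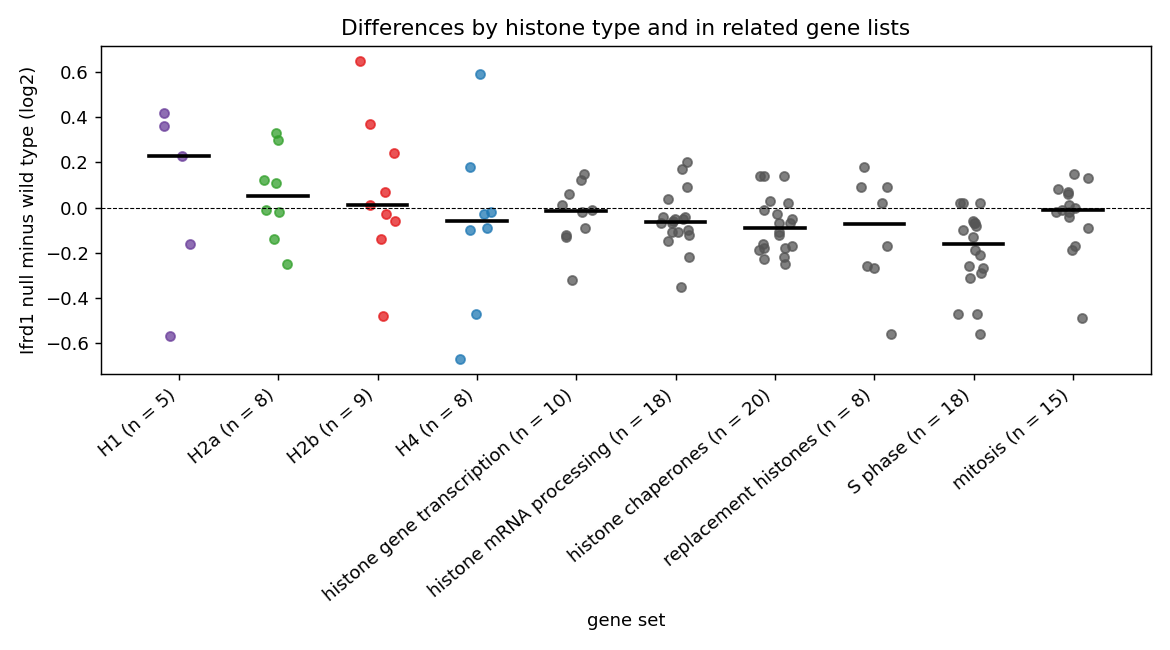
Difference Ifrd1 null minus wild type (log2, y axis) of each gene, by histone type and in the 6 related lists (x axis), with black bars at the medians. The histone types scatter on both sides of 0, with medians from -0.06 (H4) to 0.23 (H1), and the S phase genes lie mostly below 0 with a median of -0.16.

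Rows that match several histone copies gave the only view of H3. They name no single gene and are described by type, from a limma fit on every row of the table. There were 38 such rows: 12 for H3, 11 for H2a, 9 for H2b, 5 for H4 and 1 that mixes types. Of these, 6 hold the same 4 values as another of the 38, and 35 remain when equal rows are counted once. The medians and counts below use all 38. The median difference was 0.06, with 16 of 38 lower (49.8% of all rows). By type it was 0.02 for H3, 0.08 for H2a, -0.05 for H2b and 0.15 for H4. The groups did not overlap for 5 with lower and 9 with higher null levels, against 17.4% and 17.5% of all rows. By limma, 0 of the 38 passed the adjusted threshold (0.0% of all rows did) and 0 had unadjusted p under 0.05 (6.07%). The H3 rows ran from -0.22 to 0.50, and 9 of the 12 were below the array median on all arrays. The brightest H3 row was at 6.96 and 6.96 in wild type and at 7.36 and 7.06 in the null (0.25 ± 0.15). Among bright rows of other types were an H2a row of 3 copies with 10.02 and 10.05 against 10.13 and 10.09 and an H2b row of 3 copies with 10.08 and 10.22 against 9.87 and 10.01.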

How the data were processed

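The deposited table holds 1 value per array and transcript cluster. The authors' deposited values were treated as log2 levels, a scale inferred from their range (0.218 to 13.9), and every fold rests on that reading. Background correction, probe summary and normalization are not given in the sources used here. Rows with 1 gene symbol (23521 of 41345) were used, and the row with the highest mean stood for a gene. Members were matched by gene identifier to older symbols in a RefSeq table (GRCm38.p6). Groups were compared with limma 3.58.1 in R 4.3.3 over 22180 genes (lmFit, eBayes, no covariates), two-sided, with Benjamini-Hochberg adjustment and a threshold of 0.05. Errors of differences are moderated standard errors (SE). With 2 arrays against 2, the number of arrays limits every value. No filter on dim rows was applied. Alternatives were quantile normalization, cyclic loess, median centring, a replicate block, trend and robust eBayes, a filter on dim genes, the mean of a gene's rows, leaving out genes with identical values, and each array left out in turn. The fit on every row and the comparison of each null array with the wild-type mean were added after the data were seen. The members and lists were chosen with earlier results of these data known. Genes named with values are, of each type, the pair with the highest mean, the largest rise and fall and the pair with the smallest unadjusted p, the testis genes, the same kind of choice from each list, and Slbp, Npat and Ifrd1. Further members named were chosen after their values were seen.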

Additional observations from a re-analysis of the deposited data

How the results depend on the processing

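No member passed the adjusted threshold under any of the 12 alternatives (0 in each), and H4c9, H1f2, H2bc21, H2bc9, H2bc3 and H2ac1 kept their direction in each alternative that held them. Same-numbered arrays of the 2 groups share a number in their labels. Their deviations from the group means had r = -0.0352 over 22180 genes, which cannot show whether they shared a batch. With a replicate block 6 members had unadjusted p under 0.05, not all of them the ones called without it. In limma with that block H2ac1 (unadjusted p = 0.0725, adjusted p = 0.86) and H2bc3 (0.06) no longer passed, while H1f6 (0.0369) and H4c2 (0.0222) did. Of the related genes named, Npat (limma unadjusted p = 0.0834, adjusted p = 0.86) no longer passed. Without the block, Npat also did not pass in limma with quantile normalization (unadjusted p = 0.0885, adjusted p = 0.89) or cyclic loess (0.085 and 0.886). H2ac1 did not pass in limma with centring (unadjusted p = 0.0532, adjusted p = 0.761). The count of members at unadjusted p under 0.05 was 3 to 6 with an array left out. With an array left out, the non-overlap counts were 7 to 13 for lower and 9 to 14 for higher null levels, as fewer arrays overlap less. Medians by type with an array left out ran from -0.060 to 0.534 for H1, from -0.062 to 0.243 for H2a, from 0.028 to 0.089 for H2b and from -0.100 to 0.000 for H4. With quantile normalization and cyclic loess the H1 median was 0.153 and 0.153 and the H4 median -0.130 and -0.124. The filter on dim genes left 9 members, of which 3 were lower, with non-overlap counts of 2 and 3 and medians of -0.568 (H1, 1 gene), 0.304 (H2a) and 0.191 (H2b). The replacement histone median was -0.033, -0.035, -0.092 and 0.018 with quantile normalization, cyclic loess, centring and the filter, and -0.137 to 0.007 with an array left out. The list of transcription factors ran from -0.094 to 0.019, and the chaperone median was 0.009 with cyclic loess. Signs of single genes turned as follows. With quantile normalization H4f16 was at 0.049 and Mki67 at 0.065, with cyclic loess H4f16 at 0.041, Mki67 at 0.073 and Pcna at 0.006, with centring H2bc18 at -0.004, and with rows averaged H4f16 at 0.038. With an array left out, ranges were -0.293 to 0.753 for H1f5, -0.742 to 0.239 for H2ac15, -0.057 to 0.296 for H2ac20, -0.146 to 0.320 for H2ax, -0.339 to 0.067 for H2bc1, -0.284 to 0.307 for H2bc18, -0.055 to 0.413 for H4c12, -0.318 to 0.266 for H4f16, -0.142 to 0.097 for Mki67, -0.127 to 0.531 for Slbp and -0.256 to 0.025 for Tut7. Without a change of sign, sizes moved by over 1.5 times, with 0.185 to 0.534 for H1f1, 0.149 to 0.687 for H1f6, 0.133 to 0.474 for H2ac10, -0.666 to -0.279 for H4c2, 0.102 to 1.085 for H4c17, 0.056 to 0.249 for Ccne1, -0.293 to -0.046 for Kif20a, -0.511 to -0.191 for Lsm10, -0.337 to -0.112 for Sympk, -0.348 to -0.160 for Rbbp7, -0.361 to -0.169 for H2az2 and -0.176 to -0.021 for Pcna. The cause of these shifts was not tested.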

Other observations

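Some members held the same value on 2 arrays to the last digit. H4c1 was at 2.94 in wild type 1 and Ifrd1 null 2, and H4c14 at 4.07 in wild type 1 and Ifrd1 null 1. Such ties occurred for 14.1% of all genes (3124 of 22180).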
